A study of Mus musculus with 84 samples.

Results

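The genes described here act in the passage from G2 to mitosis and in mitosis itself. They were chosen by name from a list of 50 symbols, and all 50 were found among the 18909 genes measured. Entry into mitosis is driven by the kinase CDK1 bound to cyclin B, which CDC25 phosphatases switch on, while Polo-like and Aurora kinases act on centrosomes, kinetochores and the spindle. The spindle checkpoint holds back the anaphase-promoting complex (APC/C) until chromosomes are attached to microtubules, after which CDC20 directs it to securin and the B-type cyclins. Transcripts of most of these genes accumulate late in the cell cycle, so their level in a bulk sample is widely read as a sign of cycling, and mouse embryonic stem cells (ESCs) are known for fast cycles with a short G1 phase. The 50 genes fall into 7 roles. The 11 genes of mitotic entry are Cdk1, Ccnb1, Ccnb2, Ccna2, Ccnf, Cdc25b, Cdc25c, Cks1b, Cks2, Foxm1 and Cdca3. Plk1, Aurka, Aurkb, Nek2, Birc5 and Cdca8 encode mitotic kinases or parts of the chromosomal passenger complex. The spindle checkpoint and APC/C genes are Bub1, Bub1b, Bub3, Mad2l1, Ttk, Cdc20, Ube2c and Pttg1. Cenpa, Cenpe, Cenpf, Ndc80 and Nuf2 belong to the centromere and kinetochore. Spindle motors and microtubule proteins are encoded by Kif2c, Kif4, Kif11, Kif20b, Tpx2, Tacc3, Nusap1 and Hmmr. Prc1, Kif20a, Kif23, Ect2, Racgap1 and Anln serve the central spindle and cytokinesis, and Top2a, Mki67, Smc2, Smc4, Ncapd2 and Ncaph the structure of chromosomes.

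Expression was measured by STRT RNA-seq, a method that reads transcripts from a tag at their 5′ end, in 10 groups of 3 biological replicates, to follow mouse embryonic fibroblasts (MEFs) on their way to pluripotency with or without active Smad3. The MEF group was wild-type MEFs of the 129 strain, grown with FGF2 and heparin to subconfluence and not sorted. The ESC group was the TNG MKOS ESC line, grown with LIF and not sorted. The 8 reprogramming groups came from MEFs of chimeric embryos made with that line, which carries the factors Oct4, Sox2, Klf4 and c-Myc with mOrange (MKOS-ires-mOrange) in the Sp3 locus under control of doxycycline, rtTA driven by the CAG promoter, and a Nanog-GFP reporter that replaces 1 Nanog allele. These MEFs were mixed with an excess of wild-type MEFs and infected with a control vector that expresses BFP (Cont) or with one that expresses constitutively active Smad3CA (+Sm3CA). They were kept in ESC medium with vitamin C and 300 ng/ml doxycycline and sorted for mOrange on days 3, 6, 8 and 10, so that transgene-expressing cells and not the wild-type MEFs around them were measured. MEF and ESC groups thus differ from the reprogramming groups in sorting, medium and vector infection as well as in cell state, and the MEFs also in genotype. These differences cannot be told apart in comparisons that cross from one kind of group to another. Each replicate was sequenced in 3 wells, or 2 on day 10, whose read counts were summed to 30 libraries of 1008596 to 2296059 reads (median 1602511). Day 10 libraries were the shallowest as groups, with medians of 1178840 reads in Cont and 1012320 in +Sm3CA. Levels are normalized counts, that is, reads divided by DESeq2 size factors, and log2 fold changes come with the standard error (SE). All tests of genes are the quasi-likelihood test of edgeR (Benjamini-Hochberg adjusted) at a threshold of 0.05 unless another is named. With 3 libraries against 3 an exact permutation test cannot give a p-value below 0.1, so such tests were not run on single genes. The replicates are biological by the labels, and p-values measure the spread between these samples.

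Markers of the labelled cell types were looked at first. The summed level of 8 fibroblast markers (Col1a2 the most abundant) was 4276, 3819.7 and 5389 normalized counts in MEFs and 2.57 to 3.61 in ESCs, where Col1a2, Col3a1, Twist2 and Lum were at 0. The 8 ESC markers (Dppa5a the most abundant) summed to 8.89 to 12.1 in MEFs, where Esrrb, Tfcp2l1 and Eras were at 0, and to 29093 to 53887 in ESCs. In the sorted reprogramming libraries fibroblast markers summed to 277 to 1606, and ESC markers reached 580.2, 386 and 962 in Cont and 1005, 1139 and 2267 in +Sm3CA on day 10. Markers of macrophages and blood (7 of 7 with reads in MEFs, Lyz2 the most abundant) summed to 1998, 1179.9 and 468 in MEFs, 312 to 2656 in reprogramming libraries and 12.9 to 34.3 in ESCs. On day 10 this sum was 623, 2656 and 2543 in Cont replicates 1, 2 and 3 and 972, 888 and 1591 in +Sm3CA. The part of such cells in the values below was not tested. Endothelial, muscle and erythroid markers summed to at most 36.5 outside MEFs, where muscle markers (Acta1 the most abundant) summed to 554 to 854. Keratinocyte markers (Krt6a, Krt14 and Sprr2k) summed to 159 to 1058 in reprogramming libraries, with Krt5 and Trp63 at or near 0, and to 0 in ESCs. Neural and glial markers summed to 208 to 1901 in reprogramming libraries, and Mbp stood at 1273 in Cont day 8 replicate 1 and 520.1 in +Sm3CA day 10 replicate 1. ESC replicate 2 stood apart. Its mean correlation with the other ESC libraries (across genes, on log2 counts) was 0.884, the lowest of the 30 libraries, and it held 21.7 normalized counts of Nanog against 299 and 285 in the others. The ESC markers did not all go this way. It was also the lowest ESC library for Tdgf1, Tfcp2l1, Dppa4 and Eras, but the highest for Zfp42, Esrrb and Dppa5a (48415 against 26857 and 23195). Its ESC marker sum, 53887, was the highest of the group.

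Summed over the 50 genes, the 3 MEF libraries held 5344, 4632 and 4476 normalized counts. Cont libraries held 7880.1, 7669 and 7443 on day 3, 6595, 7102 and 7470.4 on day 6, 6384, 6088 and 5376 on day 8 and 7184, 5785 and 6498 on day 10. The +Sm3CA libraries held 7768, 7652 and 7149, 7075, 7321 and 8608, 6929.9, 6334 and 7757 and 7789, 8351 and 7744 on the same days. All 24 reprogramming libraries lay above all 3 MEF libraries, and the 3 ESC libraries, with 15079, 13956 and 14342, lay far above all others. Relative to the MEF mean, the group means were 1.59-fold in Cont and 1.56-fold in +Sm3CA on day 3, 1.35-fold and 1.65-fold on day 10, and 3-fold in ESCs. On this scale the sums stood above MEFs by day 3, and the gap from day 10 to ESCs was the larger one. As shares of all reads the ratios to MEFs were 1.63 in Cont and 1.73 in +Sm3CA on day 3, 1.6 and 1.95 on day 10 and 2.68 in ESCs, so that the first step was relatively the larger one in +Sm3CA and both were alike in Cont. Within Cont the day 8 libraries all lay below the day 3 and day 6 libraries, whereas the +Sm3CA days overlapped. Fibroblast marker sums in Cont were 305, 438 and 305 on day 6 and 639, 693 and 878 on day 8. Neural and glial marker sums were 354, 334 and 459 on day 6 and 1901, 654 and 638 on day 8. The part of such cells in the lower day 8 level was not tested. As shares of all reads Cont days 6 and 8 overlapped, with 0.432% in day 8 replicate 1 and 0.43% in day 6 replicate 1. On day 10 all 3 +Sm3CA libraries lay above all 3 Cont libraries. The Cont day 10 library with the highest sum, replicate 1, was also the one with the lowest macrophage and fibroblast sums of its group (591 fibroblast counts against 1606 and 1550.1). As shares of all reads, the 50 genes took 0.267 to 0.311% in MEFs, 0.392 to 0.587% in reprogramming libraries and 0.699 to 0.84% in ESCs. In bulk samples a smaller share of cells in mitosis and less RNA of these genes per cell cannot be told apart. The sums were given no test, since the genes had been chosen with results known.

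**Figure D1:**
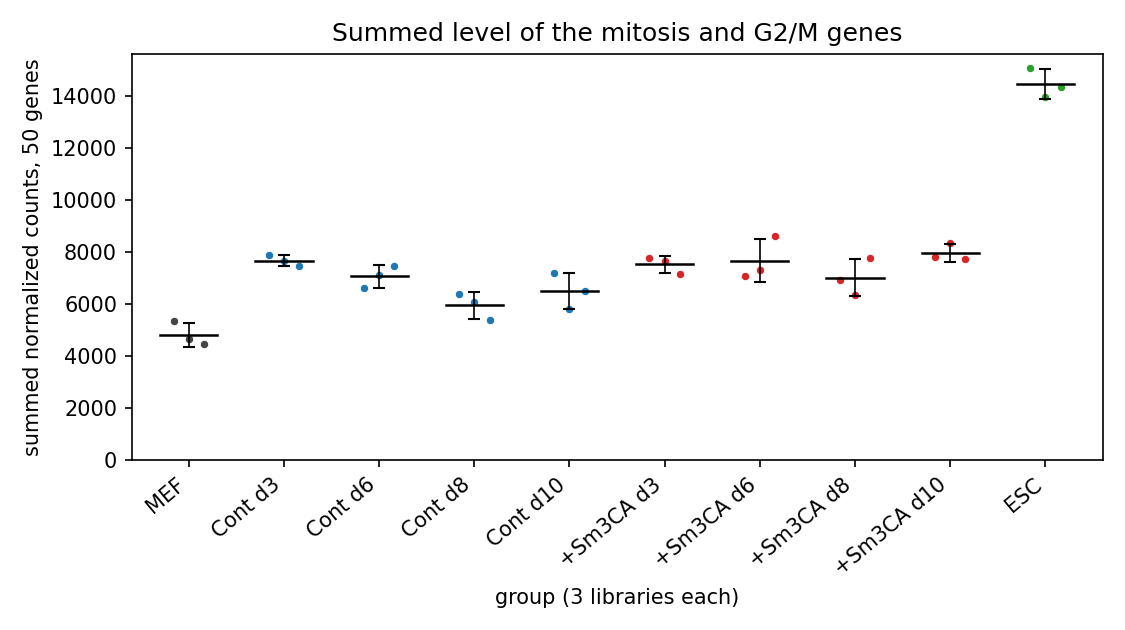
Summed normalized counts of the 50 mitosis and G2/M genes (y axis) in each of the 30 libraries (points), by group (x axis), with the mean (line) and SD (bars, n = 3). MEF libraries lie between 4476 and 5344, the 24 reprogramming libraries between 5376 and 8608, and ESC libraries between 13956 and 15079.

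Between the start and end states most of the 50 genes differed in 1 direction. Of the 49 tested, 41 were called higher in ESCs than in MEFs and 0 lower, where 23.5% of the 8798 genes tested were called higher and 52.3% were called in either direction. At an unadjusted p under 0.05, 46 of the 49 passed (57.6% of all genes) and all 49 log2 fold changes were positive, and the DESeq2 Wald test called 41 higher and 0 lower. The median log2 fold change was 1.61 over the set and −0.07 over all genes tested. The genes tested but not called were Bub3, Foxm1, Cdk1, Cks1b, Cenpe, Kif4, Ncaph and Cdc25c, and Cdc25b had too few reads in these 6 libraries to be tested. Without ESC replicate 2, 47 were called higher. By day 3, 24 genes were higher in Cont than in MEFs and 1, Kif20a, was lower (all genes: 22.6% higher, 43.4% in either direction), with a median log2 fold change of 0.67 against 0.00 over all genes. In +Sm3CA, 27 were higher (22.4% and 43.1% of all genes), with a median of 0.67. Both comparisons share the MEF libraries, so they are not independent of each other. The test called 23 genes higher in both, with Cenpa called only in Cont and Anln, Hmmr, Kif23 and Pttg1 only in +Sm3CA, and the difference between the vectors on day 3 is tested below. The scaling mattered here. With DESeq2's size factors in place of TMM the log2 fold changes of all genes against MEFs shifted by a median of −0.12 in Cont and −0.12 in +Sm3CA, 20 and 22 genes of the set were called higher and 1 lower in each, and the sign of 4 uncalled genes in Cont (Cdc25c, Plk1, Prc1 and Ncaph) and 1 in +Sm3CA (Plk1) turned. In the other comparisons this shift lay between −0.019 and 0.022. From day 10 to ESCs the set stood apart again. Of the 50 genes, 40 were higher in ESCs than in Cont day 10 and 1, Cdc25b, was lower (21.5% of all genes higher, 51.8% in either direction, median 1.27 against −0.15). Against +Sm3CA day 10, 31 were higher (18.6% and 45.8% of all genes, median 0.86 against −0.15). Without ESC replicate 2 these counts were 43 and 31 higher, and without Cont day 10 replicate 1 the first was 43.

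Genes of mitotic entry called higher numbered 6 of 10 tested in ESCs against MEFs (23.5% of all genes), 3 of 11 in Cont and 3 of 11 in +Sm3CA on day 3 against MEFs (22.6% and 22.4% of all genes), and 9 of 11 and 6 of 11 in ESCs against Cont and +Sm3CA day 10 (21.5% and 18.6%). On day 3 the share was near that of all genes and is not a result about this role. Cdc25b was called lower in ESCs than in Cont day 10. Cdk1 (ENSMUSG00000019942, chromosome 10, 69335146 to 69352938, minus strand, positions here and below in GRCm38) encodes the kinase that starts mitosis. Its normalized counts were 399.9, 346 and 342 in MEFs and 597, 289 and 501 in ESCs. Cont libraries held 479/429/367, 298/290.1/295, 328/252/214 and 309/259/379 on days 3, 6, 8 and 10, and +Sm3CA libraries 399/414/402, 292/341/367, 299/289/459 and 398/428/342. The MEF range was close to the day 3 and day 10 ranges of both series, and ESC replicate 2 lay below every MEF library. Cdk1 rose by 0.57 (SE 0.22, adjusted p = 0.0285) from Cont day 10 to ESCs on the log2 scale, and its log2 fold changes of 0.35 (SE 0.22, adjusted p = 0.209) from MEFs to Cont day 3 and 0.37 (SE 0.32, adjusted p = 0.35) from MEFs to ESCs did not pass the quasi-likelihood test of edgeR (Benjamini-Hochberg adjusted). Ccnb1 (ENSMUSG00000041431, chromosome 13, 100778650 to 100786570, minus strand) and Ccnb2 (ENSMUSG00000032218, chromosome 9, 70407692 to 70421547, minus strand) encode the B-type cyclins that activate CDK1. MEFs held 287, 248.6 and 142 normalized counts of Ccnb1, and ESCs 1346, 452 and 1331. Over days 3, 6, 8 and 10 the counts were 533/436/421, 372/449/544, 419/438/389.6 and 447/406/445 in Cont and 502/460.0/429.8, 417/418/437, 621/559/438 and 416/465/577 in +Sm3CA. Ccnb1 was raised early in both series and stayed near that level to day 10, with ESC replicates 1 and 3 well above and replicate 2 among the reprogramming libraries. It rose by 1.16 (SE 0.26, adjusted p = 0.000365) on the log2 scale from MEFs to Cont day 3, and by 1.29 (SE 0.26, adjusted p = 5.63e-05) from Cont day 10 to ESCs in the quasi-likelihood test of edgeR (Benjamini-Hochberg adjusted). For Ccnb2 the libraries of days 3, 6, 8 and 10 held 31.2/24.6/25.2, 30.5/26.8/34.3, 31.7/35.9/44.1 and 61.7/46.6/55.6 normalized counts in Cont and 39.1/19.5/29.2, 37.6/28.7/39.1, 45.7/71.1/54.1 and 79.9/67.7/83.3 in +Sm3CA. The counts were 41.1, 46.7 and 38 in MEFs and 200.1, 159 and 163 in ESCs. Here every Cont day 3 library lay below every MEF library, although the difference of −0.50 (SE 0.27, adjusted p = 0.131) on the log2 scale did not pass the quasi-likelihood test of edgeR (Benjamini-Hochberg adjusted). Ccnb2 then rose from day 3 to day 10, by 0.99 (SE 0.26, adjusted p = 0.00397) in Cont and 1.38 (SE 0.25, adjusted p = 4.62e-05) in +Sm3CA, and by 1.68 (SE 0.24, adjusted p = 1.62e-07) from Cont day 10 to ESCs in the quasi-likelihood test of edgeR (Benjamini-Hochberg adjusted).

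Cdc25b (ENSMUSG00000027330, chromosome 2, 131186949 to 131198497, plus strand) encodes a phosphatase that activates CDK1. Its normalized counts were 11.1, 6.51 and 5.19 in MEFs and 13.7, 10.8 and 14.1 in ESCs. Cont libraries held 25/31.1/25.2, 72/71.8/45.7, 71.3/54.9/52.5 and 33.3/26.3/28.3 on days 3, 6, 8 and 10, and +Sm3CA libraries 42.2/23.2/30.3, 35.9/48.9/41.8, 26/56.4/37.9 and 19.6/19.7/26. Its counts were lowest in MEFs, highest on days 6 and 8 of Cont, and back near the MEF level in ESCs. In Cont it rose by 1.95 (SE 0.38, adjusted p = 4.85e-05) on the log2 scale from MEFs to day 3 and by 1.23 (SE 0.28, adjusted p = 0.00262) from day 3 to day 6, and fell by 1.01 (SE 0.28, adjusted p = 0.04) from day 8 to day 10 and by 1.14 (SE 0.36, adjusted p = 0.00744) from day 10 to ESCs in the quasi-likelihood test of edgeR (Benjamini-Hochberg adjusted). On the step from day 8 to day 10 Cdc25b lost this call in the DESeq2 Wald test, with other libraries in the fit, without Cont day 8 replicate 1 or 2, and without Cont day 10 replicate 2 or 3 (DESeq2 or edgeR adjusted p in that order = 0.0772, 0.0655, 0.199, 0.0733, 0.149, 0.146). In +Sm3CA it rose by 2.21 (SE 0.37, adjusted p = 4.66e-06) from MEFs to day 3 in edgeR's same quasi-likelihood test. Foxm1 (ENSMUSG00000001517, chromosome 6, 128362967 to 128376146, plus strand) encodes a transcription factor that activates G2/M genes with the MuvB complex. MEFs held 15.6, 22.8 and 20.7 normalized counts of Foxm1, and ESCs 31.1, 14.5 and 16.7. Over days 3, 6, 8 and 10 the counts were 27.6/27.2/18.7, 30.5/19.1/9.66, 27.2/15.8/23.3 and 13.6/17.9/11.3 in Cont and 28.4/17.6/18.8, 36.8/17.1/21.6, 16.1/17.2/22.6 and 12.6/26.2/15.6 in +Sm3CA. Its libraries overlapped widely between groups, and these comparisons did not call it, with log2 fold changes of 0.12 from MEFs to ESCs (adjusted p = 0.853), 0.42 from MEFs to Cont day 3 (adjusted p = 0.412) and 0.63 from Cont day 10 to ESCs (adjusted p = 0.225) in the quasi-likelihood test of edgeR (Benjamini-Hochberg adjusted). With 8 to 44 reads a library, the SE of these values was 0.40 to 0.49, and changes of that size cannot be told from none. Ccnf, the F-box cyclin, was among the genes most raised in ESCs. Its counts were 11.1, 17.4 and 19.9 in MEFs and 129, 90.3 and 138 in ESCs, a log2 fold change of 2.87 (SE 0.38, adjusted p = 1.15e-05) in the quasi-likelihood test of edgeR (Benjamini-Hochberg adjusted). The CDK-binding subunit gene Cks2 held 779.9, 588 and 527 normalized counts in MEFs, 1182, 1295 and 1202 in Cont day 3 and 2245, 3074 and 1633 in ESCs, and passed the test in both steps. Cks1b, which encodes another such subunit, held 448, 358 and 398 normalized counts in Cont day 3 and 328, 213 and 276 in Cont day 10, with 368, 432 and 346 in +Sm3CA day 3 and 181, 277 and 287 in +Sm3CA day 6. It fell by 0.57 (SE 0.18, adjusted p = 0.0169) from day 3 to day 10 of Cont in the quasi-likelihood test of edgeR (Benjamini-Hochberg adjusted). Cks1b lost this call without Cont day 3 replicate 1, and without Cont day 10 replicate 2 (edgeR adjusted p in that order = 0.0894, 0.114).

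Mitotic kinase and passenger complex genes called higher numbered 6 of 6 tested in ESCs against MEFs (23.5% of all genes), 3 of 6 in Cont and 3 of 6 in +Sm3CA on day 3 against MEFs (22.6% and 22.4% of all genes), and 5 of 6 and 4 of 6 in ESCs against Cont and +Sm3CA day 10 (21.5% and 18.6%). Aurka (ENSMUSG00000027496, chromosome 2, 172356190 to 172370535, minus strand) encodes the Aurora kinase of centrosomes and spindle poles. For Aurka the libraries of days 3, 6, 8 and 10 held 535/422/363, 229.8/269/276, 237/188/149.7 and 214/171/175 normalized counts in Cont and 397/378/427, 215/297/340.1, 237/227/313 and 247/222/186 in +Sm3CA. The counts were 132, 87.9 and 131 in MEFs and 354, 179 and 257 in ESCs. It peaked on day 3 of both series, where all 6 libraries lay above all 24 others, ESCs included. From MEFs to day 3 it rose by 2.02 (SE 0.24, adjusted p = 3.29e-09) in Cont and 1.88 (SE 0.24, adjusted p = 1.64e-08) in +Sm3CA on the log2 scale, and from day 3 to day 10 it fell by 1.25 (SE 0.19, adjusted p = 4.2e-06) and 0.87 (SE 0.19, adjusted p = 0.000472) in the quasi-likelihood test of edgeR (Benjamini-Hochberg adjusted). The change from Cont day 10 to ESCs, 0.53 (SE 0.23, adjusted p = 0.0552) in edgeR's same quasi-likelihood test, did not pass. Birc5 (ENSMUSG00000017716, chromosome 11, 117849251 to 117855743, plus strand) encodes survivin, a subunit of the chromosomal passenger complex. Its normalized counts were 273, 215 and 188 in MEFs and 585, 379 and 393 in ESCs. Cont libraries held 539/579/518, 470.0/572/501, 361/356/263 and 290.1/189/352 on days 3, 6, 8 and 10, and +Sm3CA libraries 574/582/537, 460.0/537/522, 375/495/556 and 444/413/344. Its counts were about as high on day 6 as on day 3 and lower afterwards in Cont. It rose by 1.40 (SE 0.22, adjusted p = 1.56e-06) from MEFs to Cont day 3 on the log2 scale and fell by 0.98 (SE 0.19, adjusted p = 0.000105) from day 3 to day 10 in the quasi-likelihood test of edgeR (Benjamini-Hochberg adjusted). In +Sm3CA it rose by 1.44 (SE 0.22, adjusted p = 8.56e-07) and fell by 0.49 (SE 0.18, adjusted p = 0.0353) in edgeR's same quasi-likelihood test. Birc5 lost this call with other libraries in the fit, without +Sm3CA day 3 replicate 1 or 2, and without +Sm3CA day 10 replicate 2 or 3 (edgeR adjusted p in that order = 0.0851, 0.0668, 0.0811, 0.0654, 0.156). Plk1 (ENSMUSG00000030867, chromosome 7, 122159439 to 122169873, plus strand) encodes Polo-like kinase, which acts at every stage of mitosis. MEFs held 18.9, 33.6 and 26.8 normalized counts of Plk1, and ESCs 57.5, 99.3 and 112. Over days 3, 6, 8 and 10 the counts were 24.1/16.9/33.3, 21.5/15.3/25.5, 20.4/27.4/23.9 and 42/27.5/24.5 in Cont and 37.6/19.5/20.9, 20.5/25.6/22.9, 24.1/27/20.2 and 32.2/15.3/27.3 in +Sm3CA. Here the reprogramming libraries stayed within the MEF range or close to it on all days, and the 3 ESC libraries lay above all others. The log2 fold change was 0.05 (SE 0.34, adjusted p = 0.921) from MEFs to Cont day 3, 1.51 (SE 0.32, adjusted p = 0.000129) from Cont day 10 to ESCs and 1.81 (SE 0.33, adjusted p = 1.95e-05) from +Sm3CA day 10 to ESCs in the quasi-likelihood test of edgeR (Benjamini-Hochberg adjusted). Aurkb, the kinase of the passenger complex, and Nek2, a centrosome kinase, also passed in ESCs but not on day 3, with log2 fold changes from Cont day 10 to ESCs of 1.33 and 1.97 (Nek2 held 9.88, 14.3 and 11.3 normalized counts in Cont day 10 and 23.8, 81.3 and 41.1 in ESCs), and Cdca8, the borealin subunit, passed in both steps (1.08 from MEFs to Cont day 3 and 1.08 from Cont day 10 to ESCs).

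Spindle checkpoint and APC/C genes called higher numbered 7 of 8 tested in ESCs against MEFs (23.5% of all genes), 6 of 8 in Cont and 7 of 8 in +Sm3CA on day 3 against MEFs (22.6% and 22.4% of all genes), and 6 of 8 and 5 of 8 in ESCs against Cont and +Sm3CA day 10 (21.5% and 18.6%). Cdc20 (ENSMUSG00000006398, chromosome 4, 118432901 to 118437352, minus strand) encodes the activator that directs the APC/C to its substrates in mitosis. For Cdc20 the libraries of days 3, 6, 8 and 10 held 82.9/51.9/79.7, 67.1/88.1/80.8, 61.1/64.4/59.7 and 80.2/59.7/76.3 normalized counts in Cont and 90.6/77.9/68.9, 84.6/59.8/59.4, 102/149.5/71.8 and 56.1/60.1/66.4 in +Sm3CA. The counts were 27.8, 23.9 and 31.1 in MEFs and 112, 186 and 154 in ESCs. All reprogramming libraries lay above all MEF libraries, and ESC counts overlapped with those of +Sm3CA day 8. It rose by 1.50 (SE 0.27, adjusted p = 1.48e-05) on the log2 scale from MEFs to Cont day 3 and by 1.04 (SE 0.24, adjusted p = 0.000395) from Cont day 10 to ESCs in the quasi-likelihood test of edgeR (Benjamini-Hochberg adjusted). Ube2c, the ubiquitin-conjugating enzyme of the APC/C, held 169, 140.0 and 143 normalized counts in MEFs, 389.5, 376 and 368 in Cont day 3 and 913, 603 and 833 in ESCs. Bub1 and Bub1b encode checkpoint proteins at unattached kinetochores. The counts of Bub1b were 12.2, 14.1 and 17.3 in MEFs, 35.7, 38.9 and 20.3 in Cont day 3, 46.9, 53.8 and 36.7 in Cont day 10, 33.6, 50.2 and 29.9 in +Sm3CA day 10 and 141, 148 and 112 in ESCs. Its log2 fold change from MEFs to ESCs, 3.18 (SE 0.36, adjusted p = 2.19e-06) in the quasi-likelihood test of edgeR (Benjamini-Hochberg adjusted), was the largest of the 49 genes tested. Bub1 held 53.3, 44.5 and 47.5 normalized counts in MEFs, 72.2, 63.6 and 64.2 in Cont day 3, 71.6, 44.2 and 62.2 in Cont day 10, 58.7, 55.1 and 54.9 in +Sm3CA day 8, 82.7, 93.9 and 93.8 in +Sm3CA day 10 and 315, 217 and 337 in ESCs, so most of its change lay between Cont day 10 and ESCs, by 2.30 (SE 0.22, adjusted p = 4.63e-12) in the quasi-likelihood test of edgeR (Benjamini-Hochberg adjusted). Ttk, which encodes the checkpoint kinase MPS1, held 34.4, 20.6 and 19 normalized counts in MEFs, 45.7, 38.2 and 27.3 in Cont day 10, 50.5, 57.9 and 69 in +Sm3CA day 10 and 163, 159 and 143 in ESCs, a log2 fold change of 2.66 (SE 0.35, adjusted p = 9.45e-06) from MEFs to ESCs in the quasi-likelihood test of edgeR (Benjamini-Hochberg adjusted). Mad2l1, the checkpoint protein that binds CDC20, held 97.8, 115 and 75.2 in MEFs, 170.3, 204 and 189 in Cont day 3, 143, 118 and 124 in Cont day 6, 160.5, 117 and 114 in Cont day 10 and 370.0, 238 and 397 in ESCs. It rose by 1.09 (SE 0.21, adjusted p = 3.94e-05) from MEFs to Cont day 3 and fell by 0.54 (SE 0.16, adjusted p = 0.0309) from day 3 to day 6 in the quasi-likelihood test of edgeR (Benjamini-Hochberg adjusted). Mad2l1 lost this call with all genes kept, with other libraries in the fit, without Cont day 3 replicate 2 or 3, and without Cont day 6 replicate 2 or 3 (edgeR adjusted p in that order = 0.115, 0.124, 0.134, 0.0866, 0.152, 0.0933). Bub3, whose product carries BUB1 and BUBR1 to kinetochores, was not called in these steps, with log2 fold changes of 0.12 from MEFs to ESCs, 0.27 from MEFs to Cont day 3 and 0.11 from Cont day 10 to ESCs (SE 0.33, 0.22 and 0.22). Pttg1, which encodes securin, was called in ESCs against MEFs (1.81) and in +Sm3CA day 3 against MEFs (1.08).

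Genes of the kinetochore and centromere called higher numbered 4 of 5 tested in ESCs against MEFs (23.5% of all genes), 4 of 5 in Cont and 3 of 5 in +Sm3CA on day 3 against MEFs (22.6% and 22.4% of all genes), and 3 of 5 and 2 of 5 in ESCs against Cont and +Sm3CA day 10 (21.5% and 18.6%). Ndc80 and Nuf2 encode partners in the complex that holds microtubules at the kinetochore. The counts of Ndc80 were 34.4, 43.4 and 41.5 in MEFs, 107, 123 and 108 in Cont day 3, 116, 110.4 and 116 in +Sm3CA day 3, 104, 118 and 186 in +Sm3CA day 6, 84.7, 80.9 and 88.8 in +Sm3CA day 8, 81.5, 82.4 and 82.9 in Cont day 10 and 127, 79.5 and 141 in ESCs. Both day 3 groups lay above MEFs, and the ESC libraries overlapped with the reprogramming libraries. It rose by 1.61 (SE 0.24, adjusted p = 6.88e-07) in Cont and 1.63 (SE 0.24, adjusted p = 5.38e-07) in +Sm3CA from MEFs to day 3 on the log2 scale, and its change from Cont day 10 to ESCs, 0.52 (SE 0.23, adjusted p = 0.0548), did not pass the quasi-likelihood test of edgeR (Benjamini-Hochberg adjusted). Nuf2 held 43.3, 33.6 and 42.3 normalized counts in MEFs, 66, 79.1 and 86.2 in Cont day 3, 42, 44.2 and 45.2 in Cont day 10 and 83.1, 81.3 and 78.4 in ESCs, and fell by 0.83 (SE 0.24, adjusted p = 0.00778) from day 3 to day 10 of Cont in the quasi-likelihood test of edgeR (Benjamini-Hochberg adjusted). Cenpe encodes a kinetochore motor and Cenpf a large kinetochore protein. In +Sm3CA the counts of Cenpe were 229.5, 198 and 159.6 on day 3, 289, 244 and 328 on day 6 and 201, 127 and 156 on day 8, and those of Cenpf 112, 71.4 and 82.4, 168, 116 and 251 and 103, 50.9 and 145.3. Day 6 was the highest of the 3 days for both genes, and its replicate 3 the highest library. The tests of these steps are given with those of the other days. Cenpa, the histone H3 variant of centromeres, held 44.4, 25 and 42.3 normalized counts in MEFs, 73.1, 50.6 and 48 in Cont day 3, 49.9, 39.9 and 40.7 in +Sm3CA day 3, 57.3, 79.2 and 103 in +Sm3CA day 6, 75.7, 84.1 and 84.6 in +Sm3CA day 10 and 101, 173 and 83.6 in ESCs, and Cenpe 144, 129 and 119 in MEFs and 305, 132 and 208 in ESCs.

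Genes of spindle motors and microtubule proteins called higher numbered 7 of 8 tested in ESCs against MEFs (23.5% of all genes), 5 of 8 in Cont and 6 of 8 in +Sm3CA on day 3 against MEFs (22.6% and 22.4% of all genes), and 8 of 8 and 7 of 8 in ESCs against Cont and +Sm3CA day 10 (21.5% and 18.6%). Nusap1 encodes a microtubule-binding protein of the spindle. Its counts were 79.99, 68.4 and 71.7 in MEFs, 229, 184 and 214 in Cont day 3, 244, 216 and 177 in +Sm3CA day 3, 212, 209 and 166 in Cont day 10, 231, 215 and 275 in +Sm3CA day 10 and 568, 469.6 and 525 in ESCs. It took 2 steps, with every day 3 library above every MEF library and every ESC library above every day 10 library. The log2 fold changes were 1.63 (SE 0.22, adjusted p = 4.26e-08) from MEFs to Cont day 3, 1.65 (SE 0.22, adjusted p = 3.27e-08) from MEFs to +Sm3CA day 3 and 1.42 (SE 0.20, adjusted p = 1.5e-07) from Cont day 10 to ESCs in the quasi-likelihood test of edgeR (Benjamini-Hochberg adjusted). Kif2c, which encodes a microtubule-depolymerizing kinesin, was highest in ESCs. It held 5.55, 14.1 and 11.2 normalized counts in MEFs, 25, 33.7 and 11.4 in Cont day 3, 31.5, 31.5 and 30.3 in +Sm3CA day 3 and 63, 66.8 and 73.3 in ESCs, with log2 fold changes of 1.69 (SE 0.38, adjusted p = 0.000392) from MEFs to +Sm3CA day 3 and 2.70 (SE 0.44, adjusted p = 7.91e-05) from MEFs to ESCs in the quasi-likelihood test of edgeR (Benjamini-Hochberg adjusted). Kif11, the motor that pushes spindle poles apart, passed from MEFs to ESCs (2.46) and from Cont day 10 to ESCs (1.74) but not from MEFs to Cont day 3 (0.62, SE 0.34). Kif20b and Tpx2, the activator of Aurora A on the spindle, passed in both steps, while Tacc3 and Hmmr were not called in Cont day 3. Kif4, a chromosome-bound kinesin, was called in Cont day 3 and in ESCs against Cont day 10 (0.84 and 0.83).

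Central spindle and cytokinesis genes called higher numbered 6 of 6 tested in ESCs against MEFs (23.5% of all genes), 1 of 6 in Cont and 3 of 6 in +Sm3CA on day 3 against MEFs (22.6% and 22.4% of all genes), and 4 of 6 and 4 of 6 in ESCs against Cont and +Sm3CA day 10 (21.5% and 18.6%). In Cont day 3 the share was below that of all genes. Kif20a encodes the kinesin that brings passenger proteins to the midzone. Its counts were 83.3, 66.2 and 97.7 in MEFs, 50.8, 58.4 and 39.8 in Cont day 3, 59.9, 43.6 and 50.1 in +Sm3CA day 3, 65.4, 52.6 and 49.9 in Cont day 10, 68.7, 63.4 and 69 in +Sm3CA day 10 and 147, 186 and 287 in ESCs. It was the 1 gene of the set called lower on day 3, by 0.63 (SE 0.26, adjusted p = 0.0438) on the log2 scale in the quasi-likelihood test of edgeR (Benjamini-Hochberg adjusted). Kif20a lost this call with all genes kept, with the replicate number as a block, without MEF replicate 1 or 3, and without Cont day 3 replicate 1 or 3 (edgeR adjusted p in that order = 0.0748, 0.0503, 0.0564, 0.196, 0.0645, 0.151). In ESCs it rose by 1.88 (SE 0.25, adjusted p = 4.34e-08) against Cont day 10 in edgeR's same quasi-likelihood test. Racgap1, a subunit of centralspindlin, held 25.6, 30.4 and 27.7 normalized counts in MEFs, 74.9, 66.2 and 54.5 in Cont day 3, 77.8, 57.3 and 59.4 in Cont day 10 and 53, 97.5 and 73.3 in ESCs. It rose by 1.34 (SE 0.25, adjusted p = 2.92e-05) from MEFs to Cont day 3 and its change of 0.17 (SE 0.24, adjusted p = 0.561) from Cont day 10 to ESCs did not pass the quasi-likelihood test of edgeR (Benjamini-Hochberg adjusted). Kif23, its centralspindlin partner, and Ect2, a RhoA activator that binds them, were called in Cont in the last step only. Their log2 fold changes were 0.37 and 0.56 from MEFs to day 3 (not called) and 1.58 and 1.67 from day 10 to ESCs (both called). From MEFs to +Sm3CA day 3 Kif23 was called higher. Whether these genes differ between the steps, or from Racgap1, was not tested. Prc1, which bundles midzone microtubules, and Anln, the actin-binding anillin, were not called in Cont day 3, and their log2 fold changes from MEFs to ESCs were 0.92 and 1.04 (both called).

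Chromosome structure genes called higher numbered 5 of 6 tested in ESCs against MEFs (23.5% of all genes), 2 of 6 in Cont and 2 of 6 in +Sm3CA on day 3 against MEFs (22.6% and 22.4% of all genes), and 5 of 6 and 3 of 6 in ESCs against Cont and +Sm3CA day 10 (21.5% and 18.6%). On day 3 the median log2 fold change of the role was −0.03 in Cont and 0.26 in +Sm3CA, and counts this small are not a result about it. Top2a (ENSMUSG00000020914, chromosome 11, 98992943 to 99024189, minus strand) encodes the topoisomerase that untangles sister chromatids. Its normalized counts were 173, 170.4 and 170.3 in MEFs and 826, 928 and 934 in ESCs. Cont libraries held 119/147/172, 134/154/139, 128/134/138 and 183/159/167 on days 3, 6, 8 and 10, and +Sm3CA libraries 170.4/173/183, 176/125/206, 176/127/206 and 241/199/281. All Cont libraries of days 6 and 8 lay below the MEFs, those of day 10 overlapped with them, +Sm3CA day 10 lay above MEFs, and every ESC library lay far above all others. The log2 fold change was −0.11 (SE 0.20, adjusted p = 0.684) from MEFs to Cont day 3, 2.40 (SE 0.20, adjusted p = 2.42e-13) from Cont day 10 to ESCs and 1.87 (SE 0.20, adjusted p = 2.03e-10) from +Sm3CA day 10 to ESCs in the quasi-likelihood test of edgeR (Benjamini-Hochberg adjusted), the last 2 being the largest of the set in their comparisons. Mki67 (ENSMUSG00000031004, chromosome 7, 135689784 to 135716361, minus strand) encodes Ki-67, the coat protein of mitotic chromosomes used as a marker of cycling cells. MEFs held 54.4, 77.1 and 103 normalized counts of Mki67, and ESCs 184, 206 and 176. Over days 3, 6, 8 and 10 the counts were 59.7/80.4/35, 65.8/53.6/97.5, 73.6/70.7/54.3 and 100.00/70.5/48.1 in Cont and 99.8/59.4/78.2, 78.7/109/189, 68/69.8/102 and 118/90.7/177 in +Sm3CA. MEFs and reprogramming libraries overlapped widely. It passed from MEFs to ESCs, by 1.26 (SE 0.32, adjusted p = 0.00363), and from Cont day 10 to ESCs, by 1.38 (SE 0.31, adjusted p = 0.000239), and its change of −0.34 (SE 0.32, adjusted p = 0.402) from MEFs to Cont day 3 did not pass the quasi-likelihood test of edgeR (Benjamini-Hochberg adjusted). Smc2 and Smc4 form the core of condensin, and Ncapd2 and Ncaph are further subunits of condensin I. Smc4 held 133, 103 and 177 normalized counts in MEFs and 322, 529 and 345 in ESCs, with 256/245/298, 276/310.2/338, 263/261/224 and 217/217/201 in Cont and 301/206/243, 392/368/522, 246/272/253 and 353/339/324 in +Sm3CA on the 4 days. All day 3 libraries lay above all MEF libraries, and the +Sm3CA day 6 libraries lay above 2 of the 3 ESC libraries. Smc2 and Smc4 passed from MEFs to Cont day 3 (0.68 and 1.06) and from Cont day 10 to ESCs (1.31 and 0.90). Ncapd2 passed from MEFs to ESCs (1.61) and not to day 3, and Ncaph in neither.

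**Figure D2:**
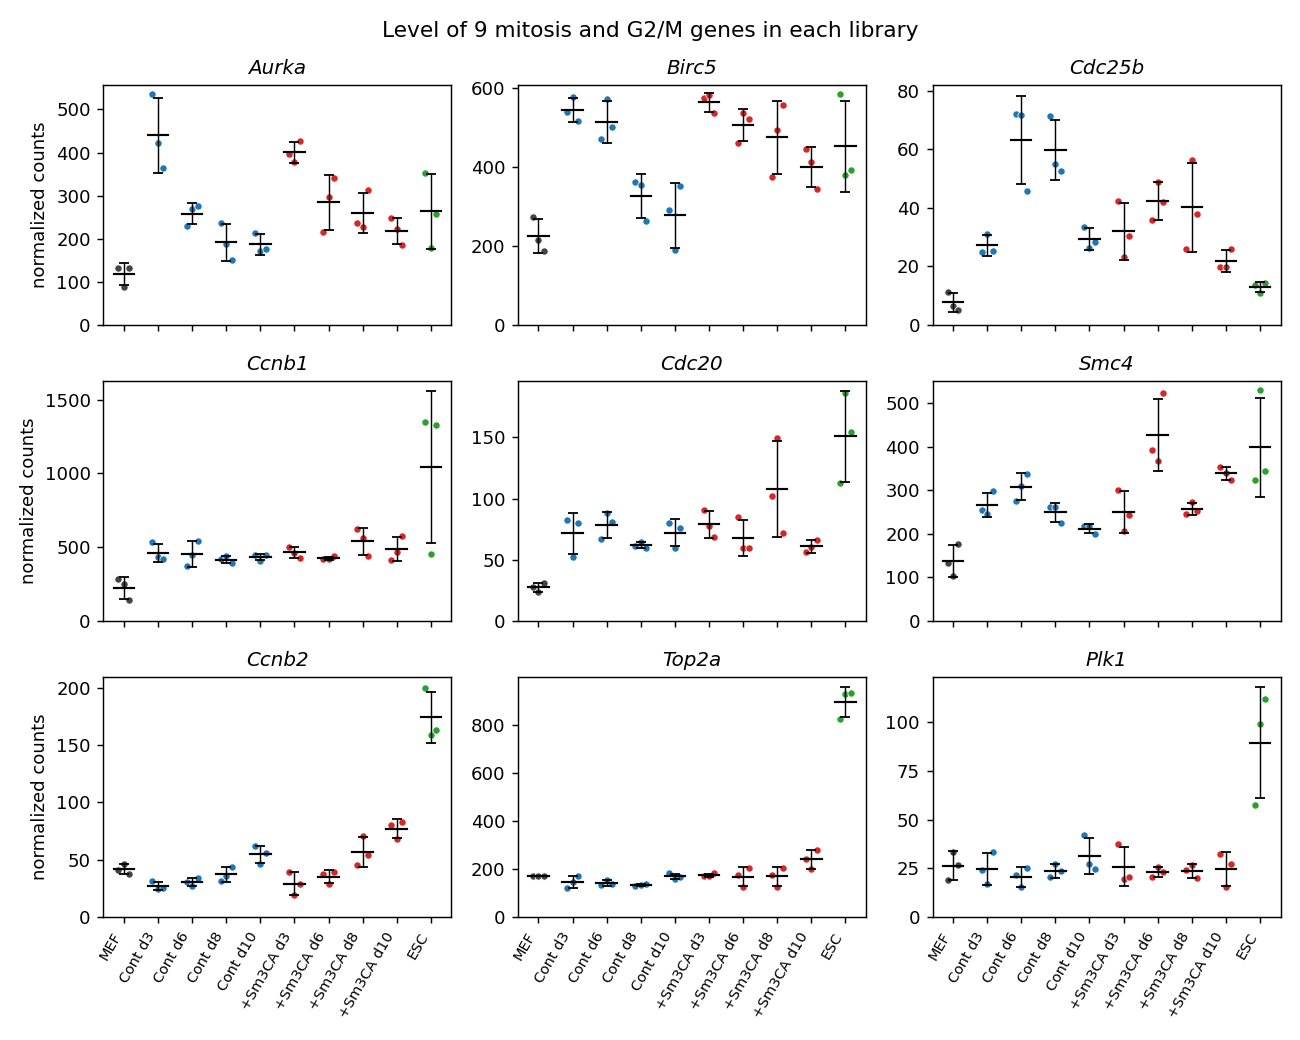
Normalized counts (y axis) of 9 genes in each library (points), by group (x axis), with the mean (line) and SD (bars, n = 3). In Cont, Aurka and Birc5 have their highest means on day 3 (439.9 and 545) and Cdc25b on day 6 (63.2), whereas Ccnb2, Top2a and Plk1 are highest in ESCs, with means of 174, 896 and 89.6.

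The first and last steps of a series have no library in common, so they can be set side by side. In Cont, 19 genes were called higher both from MEFs to day 3 and from day 10 to ESCs, 79.2% of the 24 called in the first step and 47.5% of the 40 called in the last. Over all genes tested the shares were 24.2% and 25.4%, and 5.46% of all genes were called higher in both steps. Of the 50 genes, 80% were called higher in the last step and 48% in the first. The overlap is thus near what the shares of the set give without any link between the steps, and is not a result about which genes rise in both. The test called 5 genes (Aurka, Cdc25b, Cenpe, Ndc80 and Racgap1) higher in the first step and not in the last, 21 in the last and not the first, and 5 (Anln, Bub3, Foxm1, Ncaph and Pttg1) in neither. In +Sm3CA the shared genes were 16, that is 59.3% of 27 and 51.6% of 31, with 11, 15 and 8 genes in the other 3 classes. The shares over all genes were 21% and 25.3%. Here too the overlap was near the shares of the 50 genes called higher, 62% in the last step and 54% in the first. The 2 series use the same MEF and ESC libraries. A gene called in 1 step and not in the other is not shown to differ between the steps, which was not tested.

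**Figure D3:**
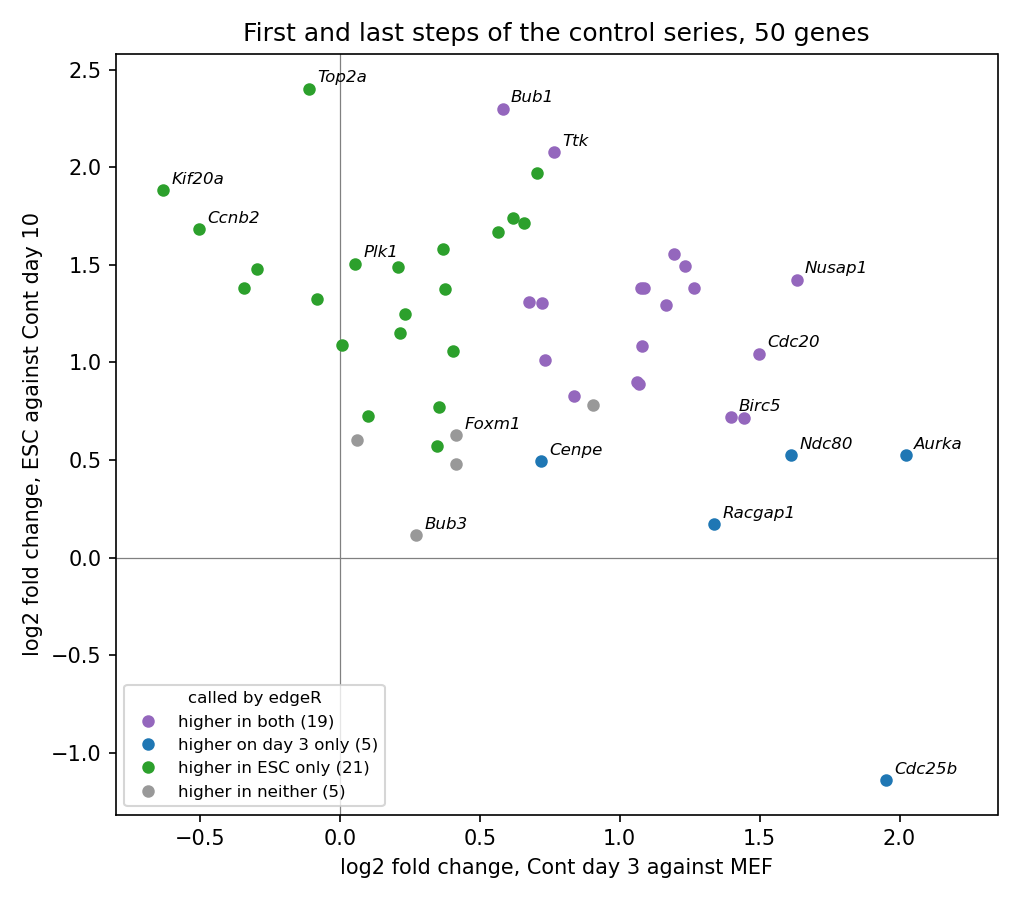
Log2 fold change of each of the 50 genes from MEFs to Cont day 3 (x axis) and from Cont day 10 to ESCs (y axis), coloured by the step in which edgeR's quasi-likelihood test called it higher. Aurka (2.02) and Cdc25b (1.95) lie farthest right, Top2a (2.40) and Bub1 (2.30) highest, and Cdc25b (−1.14) lies alone below 0.

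Within the Cont series few of the 50 genes were called between neighbouring days, at a share near or below that of all genes. From day 3 to day 6, 1 rose (Cdc25b) and 2 fell (Aurka and Mad2l1), against 9.12% of all genes called. From day 6 to day 8 Birc5 was called lower and no gene higher (1.69% of all genes), and from day 8 to day 10 Cdc25b was called lower and no gene higher (2.4%). At an unadjusted p under 0.05 there were 10, 5 and 7 genes in these 3 steps (22.9%, 13% and 14.4% of all genes), and the DESeq2 Wald test called 5, 1 and 0, of which 0 and 0 in the last 2 were higher. The medians over the set were −0.04, −0.19 and 0.14 on the log2 scale, and 0.02, 0.02 and 0.02 over all genes. In these steps 21, 12 and 38 of the 50 genes had a log2 fold change above 0. Birc5 fell by 0.67 (SE 0.18, adjusted p = 0.0435) from day 6 to day 8 in the quasi-likelihood test of edgeR (Benjamini-Hochberg adjusted). Birc5 lost this call with the replicate number as a block, with replicates paired within each series as a block, with other libraries in the fit, without Cont day 6 replicate 1, 2 or 3, and without Cont day 8 replicate 1, 2 or 3 (edgeR adjusted p in that order = 0.0552, 0.0567, 0.165, 0.0954, 0.201, 0.104, 0.052, 0.0646, 0.313). Aurka fell by 0.77 (SE 0.19, adjusted p = 0.00533) from day 3 to day 6 in the quasi-likelihood test of edgeR (Benjamini-Hochberg adjusted). Aurka lost this call without Cont day 3 replicate 1 (edgeR adjusted p = 0.0762). Over the whole week, from day 3 to day 10, Ccnb2 rose and Aurka, Birc5, Nuf2, Cks1b and Mad2l1 fell, 6 of 50 genes against 25.3% of all genes tested. Mad2l1 had a log2 fold change of −0.54 (SE 0.17, adjusted p = 0.0154) over the week in the quasi-likelihood test of edgeR (Benjamini-Hochberg adjusted), and Mad2l1 lost this call with other libraries in the fit, without Cont day 3 replicate 2, and without Cont day 10 replicate 2 or 3 (edgeR adjusted p in that order = 0.0522, 0.0569, 0.0676, 0.0774).

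In +Sm3CA the steps between days were as follows, and whether they differ from those of Cont was not tested. From day 3 to day 6 the test called Cenpf (1.00 on the log2 scale), Cenpa (0.86), Smc4 (0.78) and Cenpe (0.56) higher and Cks1b (−0.61) lower, 5 of 50 against 18.6% of all genes. From day 6 to day 8 it called Cenpf (−0.84), Cenpe (−0.84), Smc4 (−0.74) and Ndc80 (−0.68) lower and Cks1b (0.62) higher, 5 of 50 against 6.68%. Both steps use the same 3 day 6 libraries, so opposite signs for Cenpf, Cenpe, Smc4 and Cks1b are not independent results, and the day 6 and day 8 libraries of Cenpf overlapped. From day 3 to day 6 the call of Smc4 passed in 13 of 13 alternatives, and the other calls did not pass in all of them. Cenpf was no longer called higher without +Sm3CA day 3 replicate 2, and without +Sm3CA day 6 replicate 3 (edgeR adjusted p in that order = 0.0534, 0.0864). Cenpa was no longer called higher without +Sm3CA day 6 replicate 3 (edgeR adjusted p = 0.0706). Cenpe was no longer called higher in the DESeq2 Wald test, with other libraries in the fit, without +Sm3CA day 3 replicate 2 or 3, and without +Sm3CA day 6 replicate 1 or 3 (DESeq2 or edgeR adjusted p in that order = 0.0500054, 0.11, 0.0914, 0.173, 0.0948, 0.143). Cks1b was no longer called lower with other libraries in the fit, without +Sm3CA day 3 replicate 2, and without +Sm3CA day 6 replicate 1 (edgeR adjusted p in that order = 0.056, 0.0927, 0.156). From day 6 to day 8 all 5 calls were lost under some alternative. Without day 6 replicate 3 the log2 fold changes of Cenpf and Ndc80 in that step were −0.54 and −0.41, and without day 8 replicate 2 that of Cenpf was −0.53. Cenpf was no longer called lower with other libraries in the fit, without +Sm3CA day 6 replicate 1 or 3, and without +Sm3CA day 8 replicate 1 or 2 (edgeR adjusted p in that order = 0.0819, 0.0674, 0.34, 0.0828, 0.279). Cenpe was no longer called lower without +Sm3CA day 6 replicate 3, and without +Sm3CA day 8 replicate 2 (edgeR adjusted p in that order = 0.0572, 0.0542). Smc4 was no longer called lower without +Sm3CA day 6 replicate 3 (edgeR adjusted p = 0.0646). Ndc80 was no longer called lower with the first 2 wells of each replicate, with other libraries in the fit, without +Sm3CA day 6 replicate 3, and without +Sm3CA day 8 replicate 1 or 2 (edgeR adjusted p in that order = 0.0809, 0.0839, 0.322, 0.0724, 0.102). Cks1b was no longer called higher with other libraries in the fit, without +Sm3CA day 6 replicate 1 or 3, and without +Sm3CA day 8 replicate 1 or 2 (edgeR adjusted p in that order = 0.105, 0.218, 0.0532, 0.0699, 0.18). Without +Sm3CA day 6 replicate 3, 3 genes were called from day 3 to day 6 and 0 from day 6 to day 8, and without day 3 replicate 2 the first count was 2. Without day 8 replicates 1, 2 and 3 the second was 2, 1 and 10. That +Sm3CA day 6 replicate 3 also had the highest summed level of its group was given above.

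From day 8 to day 10 of +Sm3CA Ube2c and Bub1 rose, by 1.17 and 0.69, and Cdc20 fell by 0.82, 3 of 50 against 4.85% of all genes. The counts of Ube2c were 276, 265 and 279 on day 3, 223, 138 and 498 on day 8 and 655, 699 and 564 on day 10. Without +Sm3CA day 8 replicate 3 the log2 fold change of Ube2c from day 8 to day 10 was 1.83, and without day 8 replicate 2 that of Cdc20 was −0.52. Bub1 was no longer called higher with all genes kept, with other libraries in the fit, without +Sm3CA day 8 replicate 1, 2 or 3, and without +Sm3CA day 10 replicate 1, 2 or 3 (edgeR adjusted p in that order = 0.108, 0.0852, 0.061, 0.104, 0.0555, 0.0556, 0.106, 0.103). Cdc20 was no longer called lower with other libraries in the fit, without +Sm3CA day 8 replicate 2, and without +Sm3CA day 10 replicate 1, 2 or 3 (edgeR adjusted p in that order = 0.0601, 0.28, 0.118, 0.101, 0.067). Of the 3 calls 1 was left without day 8 replicate 2 and without each of day 10 replicates 1, 2 and 3, and 7 genes were called without day 8 replicate 3. Over the week 10 genes of the set rose and 2 fell, against 17.6% of all genes higher and 33.7% in either direction. Those that rose most were Ccnb2, Ube2c, Cdca3, Ncapd2 and Ccnf, with log2 fold changes of 1.38, 1.23, 1.10, 1.02 and 0.94, followed by Cenpa, Ccna2, Cenpf, Anln and Smc4, and those that fell were Aurka and Birc5. The counts of Cdca3, a trigger of mitotic entry, were 69.1, 74.2 and 63.6 on day 3 and 168, 125 and 152 on day 10, those of Ncapd2 15.4, 22.3 and 14.6 and 25.2, 39.3 and 40.4, and those of Ccnf 23.8, 26 and 28.2 and 30.8, 49.2 and 67.7. Ncapd2 lost this call without +Sm3CA day 3 replicate 1 or 3, and without +Sm3CA day 10 replicate 2 or 3 (edgeR adjusted p in that order = 0.0522, 0.0506, 0.0583, 0.0595). Ccnf lost this call without +Sm3CA day 3 replicate 1, and without +Sm3CA day 10 replicate 3 (edgeR adjusted p in that order = 0.0577, 0.167). The share of the set called in these steps was of the order of that of all genes, or below it, and is not a result about the set.

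The direct comparison of the vectors asked whether Smad3CA changed these genes on a given day. On days 3 and 6 edgeR's quasi-likelihood test called 0 and 0 of the 50 genes (0.0195% and 0.00977% of all genes), with 3 and 5 at an unadjusted p under 0.05 (5.11% and 4.16% of all genes) and 0 and 0 by the DESeq2 Wald test. On day 8 it called Ccna2 and Cks1b higher in +Sm3CA (2 of 50 against 0.381% of all genes higher and 1.04% in either direction) and on day 10 Smc4 (1 of 50 against 0.83% and 3.58%). None was called lower on these days, where 14 and 11 passed an unadjusted p under 0.05 in either direction (15.2% and 15.9% of all genes) and the DESeq2 Wald test called 3 and 1 higher and 0 and 0 lower. The median log2 fold change over the set was 0.01, 0.17, 0.24 and 0.33 on days 3, 6, 8 and 10, and 0.00, 0.01, 0.00 and −0.01 over all genes, with 26, 36, 41 and 46 of the 50 genes above 0. On day 10 ESC marker sums were 580.2, 386 and 962 in Cont and 1005, 1139 and 2267 in +Sm3CA. Fibroblast marker sums were 591, 1606 and 1550.1 in Cont and 775, 749 and 553 in +Sm3CA. Keratinocyte marker sums were 700, 952 and 820 in Cont and 419, 311 and 159 in +Sm3CA. On day 8 keratinocyte sums were 519, 703 and 633 in Cont and 312, 238 and 388 in +Sm3CA. Neural and glial sums on that day were 1901, 654 and 638 in Cont and 291, 237 and 382 in +Sm3CA. The keratinocyte sums came from Krt6a, Krt14 and Sprr2k, with Krt5 and Trp63 at or near 0 on both days, so they do not establish that keratinocytes were present. The part of cells with any of these markers in these shifts was not tested. Every +Sm3CA library lay above every Cont library for 4, 5, 15 and 15 of the 50 genes on these days, and for 5.66%, 5.14%, 7.57% and 8.78% of all genes tested. The median SE of a gene was 0.23 on day 10.

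Ccna2, which encodes cyclin A2 of S phase and G2, held 72.5, 43.3 and 53.1 normalized counts in Cont and 112, 151 and 103 in +Sm3CA on day 8. The lowest +Sm3CA library lay above the highest Cont library, and the log2 fold change was 1.14 (SE 0.22, adjusted p = 0.00478) in the quasi-likelihood test of edgeR (Benjamini-Hochberg adjusted). On day 10 its counts were 91.4, 72.9 and 68.8 and 82.7, 144 and 125, and the groups overlapped. Cks1b held 265, 200.5 and 243 in Cont and 380.1, 451 and 325 in +Sm3CA on day 8, a difference of 0.72 (SE 0.18, adjusted p = 0.0379) on the log2 scale by the quasi-likelihood test of edgeR (Benjamini-Hochberg adjusted). Ccna2 lost this call without Cont day 8 replicate 2, and without +Sm3CA day 8 replicate 2 (edgeR adjusted p in that order = 0.0557, 0.064). Cks1b lost this call with other libraries in the fit, without Cont day 8 replicate 2 or 3, and without +Sm3CA day 8 replicate 1 or 2 (edgeR adjusted p in that order = 0.143, 0.204, 0.0983, 0.0766, 0.205). The day 8 count was 0 without Cont replicate 2 or +Sm3CA replicate 2, 1 without Cont replicate 3 or +Sm3CA replicate 1, and 6 (5 higher) without +Sm3CA replicate 3. On day 10 Smc4 held 217, 217 and 201 in Cont and 353, 339 and 324 in +Sm3CA, 0.69 (SE 0.17, adjusted p = 0.00971) on the log2 scale by the quasi-likelihood test of edgeR (Benjamini-Hochberg adjusted). Smc4 lost this call with other libraries in the fit, and without Cont day 10 replicate 3 (edgeR adjusted p in that order = 0.0569, 0.0579). Without Cont day 10 replicate 1, which stood apart in its marker sums, 3 genes were called, and without +Sm3CA day 10 replicate 1, 2. Whether the vector difference changed from day 3 to day 10 was tested as an interaction. By the interaction term edgeR's quasi-likelihood test called 0 of the 50 genes (1.01% of all genes), 4 passed an unadjusted p under 0.05 (12.1% of all genes), and the DESeq2 Wald test called 1, higher. The largest interactions were those of Ube2c, 0.90 (SE 0.33, adjusted p = 0.209), Cenpa, 0.90 (SE 0.34, adjusted p = 0.224), and Smc4, 0.79 (SE 0.23, adjusted p = 0.096), by the quasi-likelihood test of edgeR (Benjamini-Hochberg adjusted), 3 genes singled out after their values were seen. The median over the set was 0.31, with 42 of 50 above 0, and −0.01 over all genes.

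Other genes of the cell cycle were set beside the 50, by counts and medians. Of all genes tested, 22.6% were called higher in Cont day 3 than in MEFs (the first step) and 21.5% in ESCs than in Cont day 10 (the last step). Of 68 further mitosis genes, none of them among the 50, 21 were called higher and 3 lower of 67 tested in Cont day 3 against MEFs (median 0.46), and 55 higher in ESCs against Cont day 10 (median 1.28). Of 42 genes of DNA replication and S phase, 21 were higher and 1 lower in the first step (median 0.70) and 38 higher and 1 lower in the last (median 1.52). Mcm5, a subunit of the replicative helicase, held 36 ± 6.25 (SD, n = 3) normalized counts in MEFs, 79.8 ± 15.2 in Cont day 3, 64.9 ± 26.3 in Cont day 10 and 218 ± 58.6 in ESCs. The medians of both lists were positive in both steps, like those of the 50 genes. The 14 core subunits of the APC/C, the complex that Cdc20 activates, had 1 higher and 3 lower in the first step (median −0.31) and 6 and 1 in the last (median 0.37). Of the 10 cohesin genes 1 was higher and 1 lower in the first step (median −0.14), and 4 were higher in the last (median 0.51). Of 14 regulators of G2/M transcription (DREAM, MuvB and NF-Y subunits, Foxm1 included, 13 tested), 3 were higher and 2 lower in the first step and 5 and 1 in the last. The share of these regulators called higher in the first step was that of all genes, and the small counts of these 3 lists are not results about them. Mybl2, which encodes B-MYB, the partner of MuvB in S phase and G2, held 9.54 ± 7.22 (SD, n = 3) normalized counts in MEFs, 28.8 ± 2.21 in Cont day 3, 39.2 ± 17.4 in Cont day 10, 62.3 ± 5.49 in +Sm3CA day 10 and 298 ± 16.9 in ESCs, a log2 fold change of 2.91 from Cont day 10 to ESCs.

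Among 20 genes of G1 cyclins, CDK inhibitors and p53 targets the direction was mostly down. In Cont day 3 against MEFs 1 was higher (Ccnd1, cyclin D1) and 11 lower of 19 tested (all genes: 22.6% higher and 20.9% lower, median of the list −0.90), and in ESCs 6 were higher and 10 lower than in Cont day 10 (all genes: 21.5% and 30.3%, median of the list −1.07). Cdkn1a, which encodes the CDK inhibitor p21, held 954 ± 116 (SD, n = 3) normalized counts in MEFs, 861 ± 65 in Cont day 3, 1281 ± 104 in Cont day 10 and 47.9 ± 13.6 in ESCs. Ccnd2, cyclin D2, held 1276 ± 35 in MEFs, 763 ± 20.4 in Cont day 3, 380.0 ± 37.6 in Cont day 10 and 10.6 ± 3.63 in ESCs. On day 10 the vectors differed in 2 of the 16 genes of this list tested, both lower in +Sm3CA (2.74% of all genes were called lower). The median log2 fold change of the whole list on that day was −0.02. Cdkn1a held 817 ± 23 (SD, n = 3) in +Sm3CA, a log2 fold change of −0.63 (SE 0.17, adjusted p = 0.0226), and Mdm2 266 ± 49.1 in Cont and 119 ± 29.8 in +Sm3CA, a log2 fold change of −1.15 (SE 0.23, adjusted p = 0.00159) by the quasi-likelihood test of edgeR (Benjamini-Hochberg adjusted). Both were singled out after their values were seen. In the same comparison 2 S phase genes (Gins1 and Dut) and 2 further mitosis genes (Casc5 and Cenpi) were higher (of 41 and 64 tested, against 0.83% of all genes). The medians on day 10 were 0.23 and 0.29 on the log2 scale.

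The genes lie on 16 chromosomes with at most 8 on any one (chromosome 2). What many of them share is found at the start of the gene. G2/M genes are known to be held back in G1 by the MuvB complex, which binds the letters TTTGAA of the cell cycle homology region (CHR) near the start, often with CCAAT boxes of the factor NF-Y upstream. RefSeq promoters (GRCm38.p6, 250 bases before to 50 after each start) were matched by symbol for 43 of the 50 genes, with 46 promoters in all. The symbols not matched in the promoter file used were Aurkb, Ccna2, Cdc25c, Foxm1, Kif20a, Smc4 and Tpx2. TTTGAA or its reverse TTCAAA stood in 33 of the 46 promoters (71.7%) and in 17.9% of all 32851 promoters, and within 50 bases of the start in 63% against 4.94%. CCAAT or its reverse ATTGG stood in 76.1% against 37.4%, at least 2 copies of it in 54.3% against 11.7%, and both motifs in 63% against 6.95%. Neighbouring CCAAT copies lay 31 to 34 bases apart in 10 of 49 gaps of the set (20.4%) and in 404 of 5418 gaps of all promoters (7.46%). Both motifs were searched on both strands, and a match is a run of letters and not a site shown to be bound. Of the 50 genes, 11 overlap a gene on the other strand (Ccna2 with Exosc9, Cdc20 with Elovl1, Cdc25b with Spef1, Bub3 with Fgfr2, Cdca8 with 9930104L06Rik, Kif4 with Pdzd11, Kif20a with Cdc23, Nusap1 with Oip5, Prc1 with Rccd1, Ube2c with Tnnc2 and Tacc3 with Tmem129) and 0 one on the same strand. STRT libraries keep the strand of a transcript, but whether the counting used it is not given in the sources used here, so how reads of such pairs were assigned is not known. The pseudogene Kif4-ps had 4 reads in all against 1039 of Kif4.

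Windows of 30 bases around the TTTGAA nearest the start are given for 7 genes from several roles, to show the shared letters in unlike surroundings. They are written 5′ to 3′ on the strand of the gene, with base +1 the start of the RefSeq entry and no base 0. This start can differ from the gene ends given above, which are those of GENCODE, and capitals mark TTTGAA as well as CCAAT in either direction.
Cdk1 (chr10:69352910-69352939, minus strand, base −27 to 3): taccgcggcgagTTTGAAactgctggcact
Plk1 (chr7:122159453-122159482, plus strand, base 19 to 48): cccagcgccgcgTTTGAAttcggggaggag
Aurka (chr2:172370521-172370550, minus strand, base 21 to 50): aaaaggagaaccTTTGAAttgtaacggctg
Cdc20 (chr4:118437344-118437373, minus strand, base −30 to −1): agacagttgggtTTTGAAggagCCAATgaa
Top2a (chr11:99024195-99024224, minus strand, base −35 to −6): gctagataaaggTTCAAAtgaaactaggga
Ube2c (chr2:164769888-164769917, plus strand, base −41 to −12): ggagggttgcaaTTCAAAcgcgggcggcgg
Kif23 (chr9:61946780-61946809, minus strand, base −10 to 20): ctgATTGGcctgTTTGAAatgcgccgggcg

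The B-type cyclins show the layouts with and without TTTGAA. The promoter of Ccnb2 has 3 CCAAT copies and TTTGAA at the start, while that of Ccnb1 has 2 CCAAT copies and no TTTGAA between 250 bases before and 50 after its start.
Ccnb2 (chr9:70421535-70421649, minus strand, base −95 to 20): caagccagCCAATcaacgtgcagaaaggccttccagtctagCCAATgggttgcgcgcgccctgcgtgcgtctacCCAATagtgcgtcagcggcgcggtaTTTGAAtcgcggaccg
Ccnb1 (chr13:100786487-100786591, minus strand, base −105 to −1): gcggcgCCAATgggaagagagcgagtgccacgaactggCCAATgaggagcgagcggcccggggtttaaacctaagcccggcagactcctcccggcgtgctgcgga
Genes with the motif and without it were both found among those called higher in these comparisons. Of all genes tested, 22.6% were called higher from MEFs to Cont day 3 and 21.5% from Cont day 10 to ESCs. From MEFs to Cont day 3, 13 of 30 genes with TTTGAA were called higher (median log2 fold change 0.59) and 9 of 13 without it (median 1.07). From Cont day 10 to ESCs the numbers were 25 of 30 (median 1.28) and 9 of 13 (median 1.06). The difference between the 2 sets was not tested.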

How the data were processed

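Raw read counts per gene and well were used as the authors deposited them. Per the submitters' processing notes, reads were aligned to mm10 with Bowtie 0.12.9 and counted per gene, and the study itself used DESeq2 1.6.3. All 84 wells were mapped to samples by their labels, no column was left out (columns not used: 0), and the wells of each replicate (195330 to 902989 reads) were summed to 30 libraries, of which 0 of 30 pairs within groups were identical.

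Tests were run in edgeR 4.0.16 (R 4.3.3) with TMM factors, filterByExpr and the quasi-likelihood F test, with Benjamini-Hochberg adjustment over all genes tested at 0.05. The comparison of ESCs with MEFs used their 6 libraries alone (8798 genes), those that cross between them and a series used all 30 (10979 genes), and those within and between the series used 24 (10237 genes). The SE is the absolute log2 fold change from the unshrunken coefficients of the fit, divided by the square root of F. The log2 fold changes given are those edgeR reports, which are shrunken by a prior count, so the 2 differ most for genes with few reads. Levels are counts divided by DESeq2 1.42.0 size factors. Tried as alternatives were size factors of DESeq2 in place of TMM, the Wald test of DESeq2, all genes with any read kept, the first 2 wells of each replicate, another set of libraries in the fit, the replicate number as a block, and each library left out in turn. Values are given in all libraries for selected key genes, and in the libraries compared for genes with the largest called changes, at most 5 in each direction. Genes and lists were chosen with earlier results of these data known.

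The design text pairs replicate numbers over the days of a series. Deviations from group means (8628 genes) correlated at a mean of 0.0028 over 18 same-number pairs of days in Cont, 0.022 over 18 in +Sm3CA, and −0.017 over 12 between the vectors. Promoter letters were counted in RefSeq promoters of GRCm38.p6. The code was tested on simulated data, tables were made with Python 3.11.15 and pandas 2.3.3, and plots with matplotlib 3.10.9.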

Additional observations from a re-analysis of the deposited data

How the results depend on the processing

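Of the called gene values, the 61 largest by comparison and direction were each recomputed under every alternative, 763 values in all, of which 666 kept their direction and passed the threshold, 97 kept their direction and no longer passed, and 0 reversed. Of the counts of genes called, 186 stayed within 1.5 times the count given in the results and 44 moved further. With the replicate number as a block, or the numbers paired within each series as a block, the count from Cont day 6 to day 8 went from 1 to 0 and 0, and the call of Kif20a on Cont day 3 was lost. The block ended no other of the 61 calls. With other libraries in the fit the count was 0 from Cont day 6 to day 8, 0 from Cont day 8 to day 10, 3, 2 and 1 in the 3 steps of +Sm3CA, and 1 and 0 between the vectors on days 8 and 10. The DESeq2 Wald test called 5 genes from Cont day 3 to day 6, 0 from Cont day 8 to day 10 and 1 in the interaction. Without a filter on low counts 2 genes were called between the vectors on day 10 and 1 in the interaction, and with the first 2 wells 2 from Cont day 8 to day 10. With libraries left out in turn the counts ran from 35 to 47 in ESCs against MEFs, 19 to 23 in Cont day 3 and 20 to 25 in +Sm3CA day 3 against MEFs, and 36 to 44 and 27 to 31 in ESCs against Cont and +Sm3CA day 10. In the 3 steps of Cont they ran from 2 to 3, 0 to 0 and 0 to 1, in those of +Sm3CA from 2 to 6, 0 to 10 and 1 to 7, between the vectors on days 8 and 10 from 0 to 6 and 1 to 3, and in the interaction from 0 to 1. The summed level relative to MEFs, as a share of all reads, was 1.41 on Cont day 8, 1.6 on Cont day 10, 1.95 on +Sm3CA day 10 and 2.68 in ESCs. Scaled by TMM it was 1.73 on Cont day 3, 1.81 on +Sm3CA day 10 and 3.17 in ESCs, and without the 2 most abundant genes 1.51 on Cont day 3 and 2.8 in ESCs. The cause of these shifts was not tested.

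MEFs and ESCs were neither sorted nor infected, so their comparisons with the series mix cell state with handling. With 3 libraries in a group and 1008596 to 2296059 reads each, genes with few reads, such as Foxm1, Plk1 and Cdc25b, have wide errors. Changes between days or vectors, 2-fold ones included, can go undetected. In the simulated data, made for the vectors on day 10, the test called 41 of 97 genes changed 2-fold and 81 of 97 changed 4-fold in the right direction. Cell cycle phase, the share of cells in mitosis and protein levels were not measured in these files.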
